A study of Homo sapiens with 6 samples.

Results

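Lysosome genes of the human hepatic stellate cell line LX-2 were compared between cells given recombinant human semaphorin 3C (rhSema3C) and cells given the vehicle PBS. The members were the genes whose KEGG annotation in the deposited table carries the lysosome entry, without NPC1 and NPC2, and whose mean FPKM over the 6 samples was at least 0.5. Of the 33900 genes in the table, 118 met the annotation rule and 111 also met the level rule. These 111 members were grouped by role into 49 hydrolases with their activators, 21 membrane proteins, 9 subunits of the proton pump V-ATPase and 32 sorting genes. The 7 genes below the level rule were AP3B2, ATP6V0D2, CTSE, HYAL1, LAMP3, NAPSA and SLC11A1.

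The study asked how Sema3C acts on hepatic stellate cells, the liver cells that lay down scar matrix. LX-2 is one established wild-type line, so every sample shares 1 genetic background. The 3 rhSema3C samples received 300 ng/ml for 48 h, and the 3 PBS samples were handled for the same time without the protein. The labels call the samples biological replicates without saying what separated them, so the p-values measure the spread between these samples. Totals ran from 68267808 to 89245585 counts per sample, and replicates of 1 group differed by more than sampling noise. Mitochondrial genes took 4.75% to 5.42% of the counts in the PBS samples and 3.73% to 3.93% in the rhSema3C samples. Taking library sizes without those genes left 23 members called higher and 56 called lower, as in the test reported here.

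The lysosome is the acidic compartment in which proteins, glycans, lipids and nucleic acids from endocytosis and autophagy are broken down. Its hydrolases are made in the endoplasmic reticulum, tagged with mannose 6-phosphate in the Golgi and carried by receptors in clathrin-coated vesicles, while the V-ATPase pumps protons across the limiting membrane to give the enzymes their pH. Transcription factors of the MiT/TFE family bind the E-box-based CLEAR element in many lysosomal promoters. In stellate cells, autophagy delivers lipid droplets, which store vitamin A as retinyl esters, to this compartment.

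More lysosome genes fell than rose with rhSema3C, and the changes were mostly of less than 2-fold. Of the 111 members, 56 (50.5%) were lower and 23 (20.7%) were higher at an adjusted p below 0.05 in edgeR's quasi-likelihood test, against 30.6% lower and 31.7% higher among the 14178 genes tested, of which 62.3% were called in either direction. The median log2 fold change was -0.15 over the members and 0.02 over all genes tested. In 83 members (74.8%) the 3 rhSema3C samples did not overlap the 3 PBS samples, 60 of them lower and 23 higher, against 67.8% of all genes tested. Only 3 of the 111 members, ATP6V0A4, AP1M2 and CLTB, differed by more than 2-fold with an unadjusted p below 0.05 in that test, all lower. Of the 14178 genes tested, 785 (5.54%) passed these limits. The adjusted p of the 3 members was also below 0.05. The split rests on the scaling between samples. On log2(TPM + 1), where FPKM values are rescaled to the same sum in each sample, limma called 46 members higher and 30 lower, and with library size alone edgeR called 32 higher and 46 lower. These scalings moved the median of all genes to 0.23 and 0.13, and relative to the median of all genes the members' median was -0.165 and -0.17 there, against -0.171 in the test reported here. The filter on low genes moved that value more, to -0.095 at a mean FPKM of at least 5 and to -0.234 without a filter. Of the 79 called members, 42 were called in the same direction in every alternative fit that tested them.

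**Figure D1:**
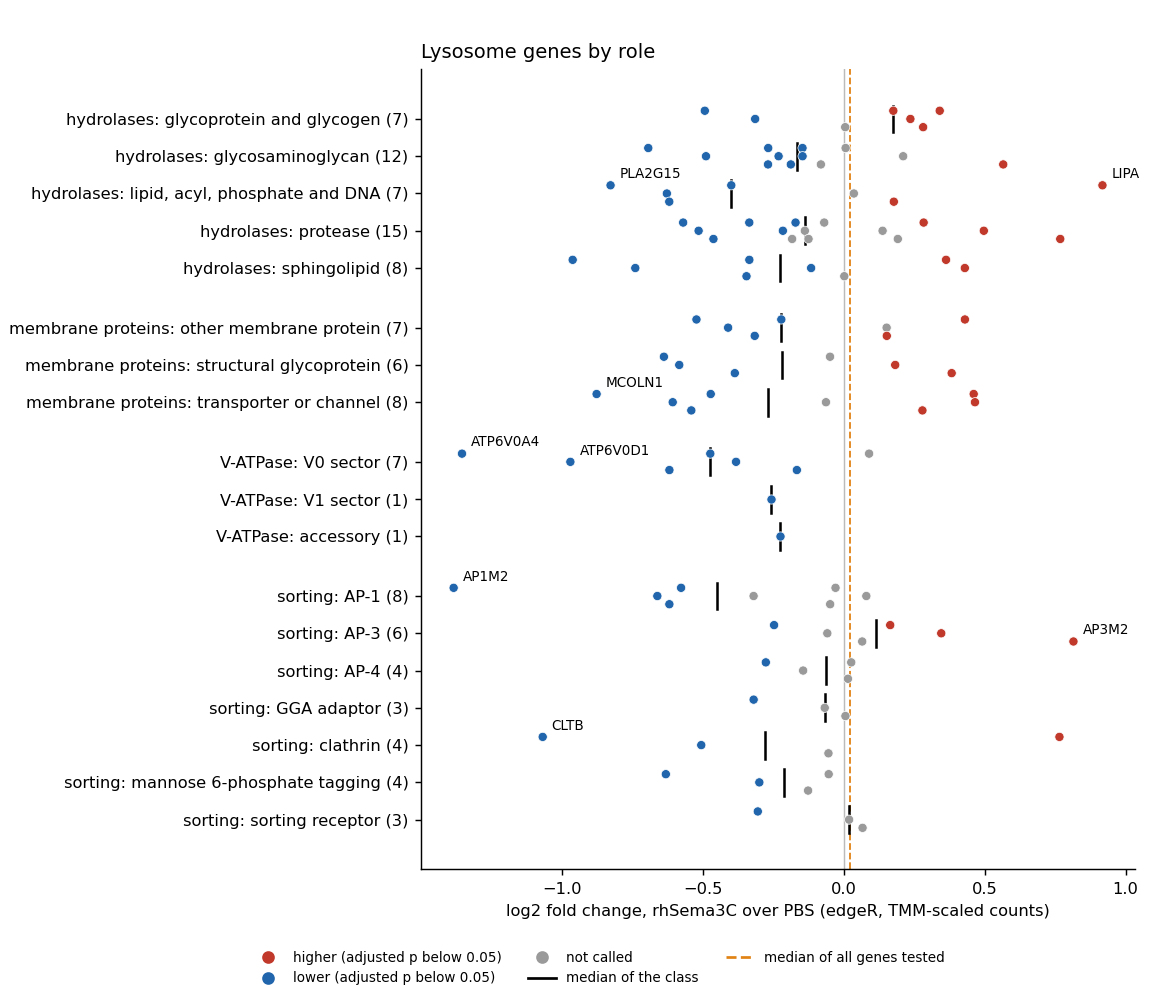
The log2 fold change of each of the 111 lysosome genes (x axis, rhSema3C over PBS) is plotted by role (y axis, number of genes in brackets), with called genes in red or blue and the median of each class as a black bar. The V-ATPase subunits lie left of the median of all genes tested (dashed line, 0.02) with the exception of ATP6V0A2, and the class medians of AP-3 and of the glycoprotein hydrolases lie right of it.

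As a share of all counts, in which longer transcripts weigh more, the members made up 1.72%, 1.78% and 1.75% in the PBS samples and 1.67%, 1.64% and 1.65% in the rhSema3C samples. Every rhSema3C share of the counts was below every PBS share. In FPKM, which allows levels to be compared between genes, the members summed to 4244, 4363 and 4288 in the PBS samples and 4050.0, 3974 and 3983 in the rhSema3C samples, and PSAP, CD63 and CTSL alone supplied 32% of this sum. The FPKM of the whole table also summed to less in each rhSema3C sample (265982.8 to 268533.5) than in each PBS sample (288168.7 to 297338.5). The members' lower sums in FPKM therefore show no lower share of the table's FPKM. These are bulk samples, in which less RNA per cell and fewer cells of a kind cannot be told apart.

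The changes also moved with base composition. The genes tested were split by GC content of the transcript into 5 bins. Over all of them, the median log2 fold change fell from 0.31 in the lowest bin to -0.29 in the highest. The members' medians also turned from positive to negative, but not steadily. From the lowest to the highest bin they were 0.171, 0.152, -0.305, -0.473 and -0.262, against 0.310, 0.237, -0.029, -0.237 and -0.294 for all genes. The members' median was thus below that of all genes in every bin except the highest. Between 46% and 51.7% GC, 20 of 27 members were lower, against 32.7% of all genes. Of the 33 members below 46% GC, 17 were higher and 3 lower, and of the 78 at or above 46% GC, 6 were higher and 53 lower. Over all genes tested the shares were 55% higher and 8.71% lower below that limit, and 16.3% higher and 45.4% lower at or above it. The part of base composition in the members' changes was not tested, but removing each sample's trend over GC content and length gave 28 members higher and 55 lower, with a median of -0.13. Under that correction 44 of the 56 lower members remained lower and 13 of the 23 higher members remained higher, while TCIRG1, SGSH and PSAP turned from lower to higher and MANBA and AP3B1 from higher to lower. Of the 57 members called in the same direction with and without the correction, 26 had a log2 fold change smaller by over 1.5 times under it, 22 of them lower and 4 higher, and 5 had a larger one by that limit, and 21 members without a call were called under the correction. GC-corrected values are given below for the named genes that passed that limit, lost their call or gained one.

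**Figure D2:**
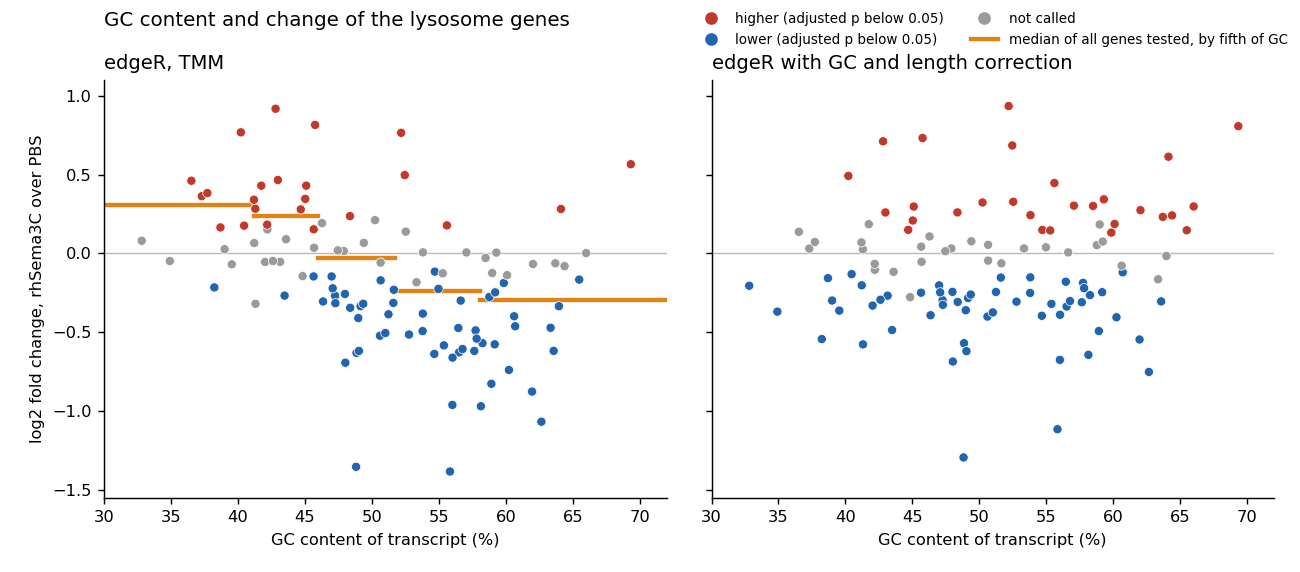
Each lysosome gene's log2 fold change (y axis, rhSema3C over PBS) is plotted against the GC content of its longest transcript (x axis, percent), without (left) and with (right) removal of the trend over GC content and length, coloured by call. On the left the medians of all genes in 5 bins of GC content (orange) run from 0.31 to -0.29. The members' medians also go from positive to negative, but are below those of all genes in every bin except the highest. On the right the members lie on both sides of 0 over most of the range, but not at its ends. Members from GAA (64.1% GC) up to IDUA (69.3% GC) all lie above 0 there, and AP1S2 and CD164, with the lowest GC content, lie below 0.

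Promoter sequence was examined because most called members moved in 1 direction and because the E-box CACGTG is the core of the CLEAR element. RefSeq promoters of 250 bases before to 50 bases after a start site (GRCh38.p14) were found for 83 of the 111 members. The E-box CACGTG, which reads the same on both strands, stood in 23 of these 83 (27.7%), against 12.7% of the 9951 genes tested that had a promoter and 8.77% of all 27305 genes with one. A gene counted when the window of any of its start sites held the letters. The longer palindrome TCACGTGA, which contains CACGTG, stood in 11 members (13.3%), against 2.39% of the genes tested and 1.18% of all genes with a promoter. Of the members called lower, 16 of 42 (38.1%) held CACGTG, of those not called 6 of 25 (24%), and of those called higher 1 of 16 (6.25%), namely GAA. Over all genes tested with a promoter the shares were 14% of those lower, 11.4% of those not called and 12.7% of those higher. For TCACGTGA the shares of members were nearer to each other, at 16.7%, 12% and 6.25%, against 2.47%, 1.92% and 2.76% of all genes tested. A match of letters is a description and shows no binding. The sequences below are 30 bases from the promoters of 5 members that fell and of GAA, which rose, shown for their changes, 5′ to 3′ on the gene's strand, with the palindrome in capitals. The palindrome also stood in CD164, GNPTG and IGF2R, which were not called, and in GALNS and NAGPA, which were lower. More than 1 copy stood in GNPTG and IGF2R, and also in LAMP1 and GAA, for each of which 1 copy is shown. The windows shown lie at chr19:7522571-7522600 and chr19:7522598-7522627 (plus strand) for MCOLN1, chr16:67481199-67481228 (minus) for ATP6V0D1, chr16:28492058-28492087 (minus) for CLN3, chr20:45891298-45891327 (plus) for CTSA, chr13:113297226-113297255 (plus) for LAMP1 and chr17:80101538-80101567 (plus) for GAA.
MCOLN1 first copy: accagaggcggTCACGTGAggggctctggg
MCOLN1 second copy: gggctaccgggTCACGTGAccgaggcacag
ATP6V0D1: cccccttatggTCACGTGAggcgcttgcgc
CLN3: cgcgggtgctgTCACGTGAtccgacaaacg
CTSA: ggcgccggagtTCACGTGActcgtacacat
LAMP1: cgcggcgcagcTCACGTGAcaagcgctgcc
GAA: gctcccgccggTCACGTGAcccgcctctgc

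The hydrolases fell more often than they rose, with 25 of 49 lower (51%), 12 higher (24.5%) and a median log2 fold change of -0.15. Among all genes tested 30.6% were lower and 31.7% higher, shares that also stand beside the hydrolase classes below. Among the stronger falls were those of SMPD1 and PLA2G15, enzymes that act on sphingolipids and phospholipids. Among the 8 sphingolipid genes, 5 were lower and 2 higher. SMPD1, acid sphingomyelinase, read 73.6, 77.7 and 75.5 CPM in the PBS samples and 44.8, 45.6 and 45.5 CPM in the rhSema3C samples, where CPM is the count scaled to the library size with TMM factors. The groups were far apart (log2 fold change -0.74 ± 0.047 (SE), adjusted p = 2.3e-07), and the GC-corrected fall was smaller (-0.41). GM2A, the activator protein that presents the ganglioside GM2, and GLA, alpha-galactosidase A, changed less, with log2 fold changes of -0.34 and -0.33. PSAP, the precursor of the saposins and the most abundant member at 649 FPKM, read 2150.2, 2295 and 2206 CPM in the PBS samples and 2067, 2059 and 2014 CPM in the rhSema3C samples. Its samples did not overlap and the level fell by 7.71% (log2 fold change -0.12 ± 0.038 (SE), adjusted p = 0.019), and the sign turned on the TPM scale (0.11) and with the GC correction (0.15). Its call was lost without PBS replicate 2 (-0.09, adjusted p = 0.072) and without rhSema3C replicate 3 (-0.10, adjusted p = 0.0903).

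The other direction within sphingolipid breakdown was taken by ASAH1 and GALC. ASAH1, acid ceramidase, read 98.9, 102 and 102 CPM in the PBS samples and 129, 134 and 127 CPM in the rhSema3C samples. Every treated sample was above every control (log2 fold change 0.36 ± 0.040 (SE), adjusted p = 1.4e-05), while the GC-corrected value was 0.03 and not called. GALC, galactocerebrosidase, had a log2 fold change of 0.43, with adjusted p = 0.0021 and a GC-corrected value of 0.19 that was not called. ARSA, arylsulfatase A, overlapped between the groups and was called higher with the GC correction (0.30).

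Of the 7 genes for other lipids, acyl groups, phosphate and DNA, 4 were lower and 2 higher. LIPA (ENSG00000107798, chr10:89213569-89414557, minus strand, coordinates on GRCh38), lysosomal acid lipase, which frees cholesterol and fatty acids from esters taken up with lipoproteins and from lipid droplets, had the largest rise of all members. It read 130.3, 115 and 124 CPM in the PBS samples and 236, 230.0 and 232 CPM in the rhSema3C samples. The groups did not come near each other (log2 fold change 0.92 ± 0.049 (SE), adjusted p = 6.2e-08), and the rise held with the GC correction (0.71). The annotated span of LIPA covers the interferon-induced IFIT genes on the opposite strand, of which IFIT2 (log2 fold change 0.78) and IFIT3 (0.57) also rose and IFIT1 did not pass the test (-0.05). The strand setting of the counting is not given in the sources used here, and only spans, not exons, were compared. Whether reads of these genes entered the counts of LIPA is therefore not known. PLA2G15, the lysosomal phospholipase A2, moved the other way and read 93.3, 96.8 and 89.4 CPM in the PBS samples and 53.0, 53.9 and 50.5 CPM in the rhSema3C samples. Its level fell by 43.6% (log2 fold change -0.83 ± 0.050 (SE), adjusted p = 1.5e-07), and the GC-corrected value was -0.49. PPT2, a thioesterase, and the acid phosphatases ACP2 and ACP5 fell with log2 fold changes of -0.63, -0.62 and -0.40, or -0.34, -0.31 and -0.08 after GC correction, the last without a call. DNASE2, which digests DNA of engulfed material, rose (0.18, GC-corrected 0.45).

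Of the 12 genes of glycosaminoglycan breakdown, 8 were lower and 1 higher, a split that was 6 lower and 5 higher with the GC correction. ARSB, arylsulfatase B, which works on dermatan sulfate, read 39.9, 43.5 and 41.0 CPM in the PBS samples and 23.5, 26.9 and 26.4 CPM in the rhSema3C samples. No sample crossed between the groups (log2 fold change -0.69 ± 0.072 (SE), adjusted p = 9.0e-06). GALNS, the keratan sulfate sulfatase, fell with a log2 fold change of -0.49, or -0.19 after GC correction. IDS (-0.27), GLB1 (-0.23), SGSH (-0.19) and HEXA (-0.15) were also lower, with IDS at -0.49, SGSH at 0.13 and GLB1 at -0.06 after GC correction, and HEXA lost its call without PBS replicate 2 (-0.12, adjusted p = 0.0541). The gene called higher was IDUA, alpha-L-iduronidase, which read 7.14, 6.86 and 6.77 CPM in the PBS samples and 10.0, 8.96 and 11.8 CPM in the rhSema3C samples. Its treated samples were the more scattered group and still all above the controls (log2 fold change 0.57 ± 0.12 (SE), adjusted p = 0.0021). SLC26A1, whose span overlaps that of IDUA on the opposite strand, fell (-0.75). Without a strand setting or a comparison of exons, it is not known whether the pair shared reads.

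Hydrolases of glycoproteins and glycogen were the only hydrolase class whose median was above that of all genes (0.18), with 4 of 7 higher and 2 lower, or 3 and 3 with the GC correction, under which the median was 0.07 and that of the proteases (0.026) also lay above all genes (0.021). GAA, the acid alpha-glucosidase that degrades glycogen, read 44.8, 52.3 and 48.8 CPM in the PBS samples and 62.4, 58.7 and 56.3 CPM in the rhSema3C samples. The lowest treated sample was above the highest control (log2 fold change 0.28 ± 0.067 (SE), adjusted p = 0.0033), and the GC-corrected rise was 0.61. AGA, FUCA1 and MANBA, which trim glycans and their asparagine link, rose with log2 fold changes of 0.34, 0.24 and 0.18, of which only FUCA1 kept a rise after GC correction, with AGA at 0.07 and MANBA at -0.13. The sialidase NEU1 fell (-0.31, GC-corrected -0.15).

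The 13 cathepsins, the main lysosomal proteases, did not move as one. There were 5 lower (38.5%), 3 higher (23.1%) and 5 without a call, near the shares of all genes tested (30.6% lower and 31.7% higher). CTSL (ENSG00000135047, chr9:87726109-87731393, plus strand), a cysteine protease and the second most abundant hydrolase at 271 FPKM, read 419.5, 433 and 422 CPM in the PBS samples and 607, 606 and 586 CPM in the rhSema3C samples. The treated samples stood 1.41-fold higher with little scatter (log2 fold change 0.50 ± 0.039 (SE), adjusted p = 9.3e-07), and the GC-corrected rise was 0.69. CTSO, a low-level cathepsin of 1.62 FPKM, rose 1.70-fold from 3.93, 2.97 and 3.77 CPM to 6.01, 6.64 and 5.53 CPM (log2 fold change 0.77 ± 0.16 (SE), adjusted p = 0.0013), with a GC-corrected value of 0.49. CTSV, the closest relative of CTSL, rose by 0.28 on the log2 scale and had no call after GC correction (0.03).
Among the cathepsins that fell were CTSZ, CTSB and CTSD, with mean levels of 112, 31.4 and 241 FPKM. CTSZ, a carboxypeptidase, read 282, 289 and 278 CPM in the PBS samples and 189.7, 188 and 194 CPM in the rhSema3C samples. CTSB, a cysteine protease, read 270.2, 292 and 277 CPM in the PBS samples and 201, 194 and 193 CPM in the rhSema3C samples. CTSD, the aspartic protease, read 806, 896 and 864 CPM in the PBS samples and 686, 667 and 682 CPM in the rhSema3C samples. In none of these 3 did a treated sample reach the controls, and the log2 fold changes were -0.57, -0.51 and -0.34. After GC correction they were -0.26, -0.31 and -0.02, the last without a call. CTSA, the protective protein of beta-galactosidase and sialidase, fell by 0.46 on the log2 scale, and CTSC, which activates serine proteases, by 0.22, with GC-corrected values of -0.12 and -0.54. CTSH, CTSF, CTSW, CTSS and CTSK did not pass the test, and CTSK, known from bone resorption, had as few as 75 counts in a sample. With the GC correction CTSF was called higher (0.19) and CTSS lower (-0.36), and LGMN, given below, was called higher (0.33). TPP1, a tripeptidyl peptidase, was lower (-0.17) and had no call after GC correction (-0.05) or without rhSema3C replicate 3 (-0.14, adjusted p = 0.0504), and LGMN, the asparaginyl endopeptidase, did not pass the test (0.14, adjusted p = 0.065).

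**Figure D3:**
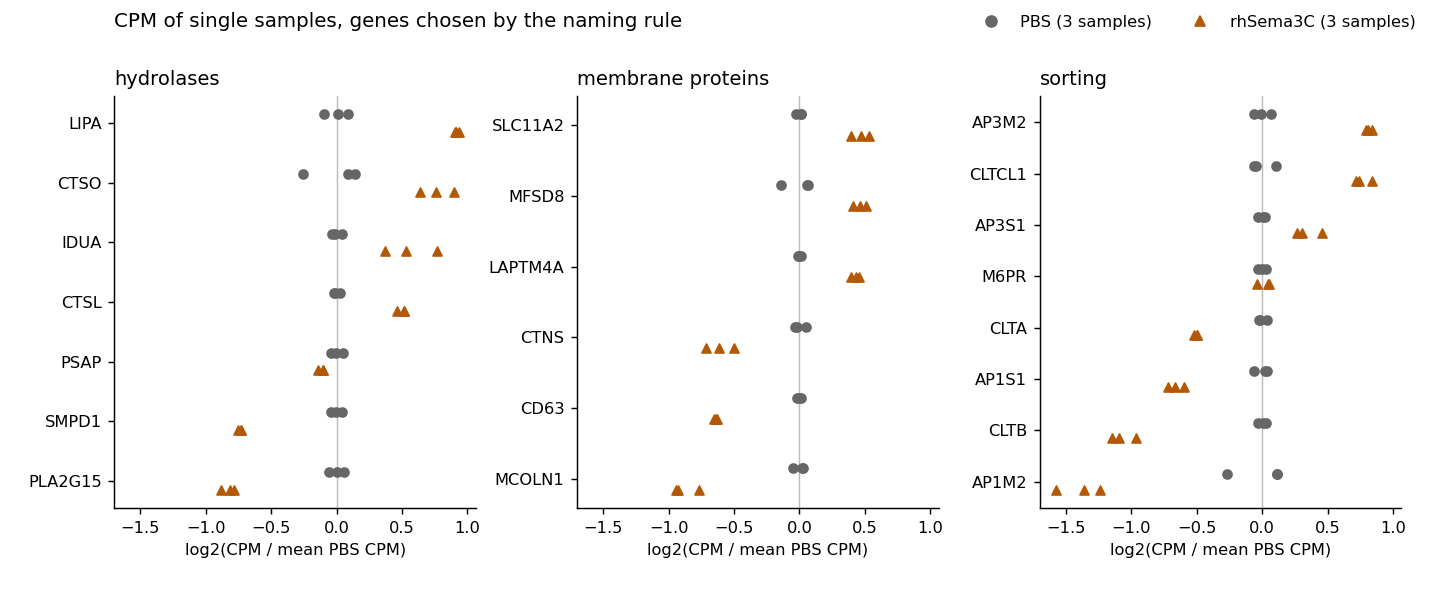
Single samples are shown as log2 of CPM over the mean PBS CPM (x axis) for the hydrolases, membrane proteins and sorting genes with the largest falls and rises and the highest levels (y axis), PBS as grey circles and rhSema3C as brown triangles, 3 samples each. The falls and rises were drawn only from called members without overlap between groups, so their separation was fixed by that choice. M6PR, chosen for its level, overlaps. LIPA lies farthest to the right and AP1M2 farthest to the left.

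Among the membrane proteins 11 of 21 were lower (52.4%) and 7 higher (33.3%), with a median log2 fold change of -0.22. The share higher was near the 31.7% of all genes tested, of which 30.6% were lower. After GC correction 11 membrane proteins were lower and 4 higher. The largest fall was in MCOLN1 (ENSG00000090674, chr19:7522624-7534009, plus strand), the mucolipin calcium channel. Its promoter holds more than 1 copy of the palindrome, as do those of LAMP1, GAA, GNPTG and IGF2R. MCOLN1 read 48.6, 51.0 and 51.2 CPM in the PBS samples and 29.6, 26.1 and 26.4 CPM in the rhSema3C samples. All treated samples lay below the controls, a fall by 45.5% (log2 fold change -0.88 ± 0.067 (SE), adjusted p = 8.7e-07), and the GC-corrected value was -0.55. PNPLA6, which overlaps it on the same strand, had a smaller fall (-0.22). CTNS, the cystine exporter, read 67.3, 68.0 and 71.2 CPM in the PBS samples and 48.7, 41.9 and 45.0 CPM in the rhSema3C samples. Its groups were apart as well (log2 fold change -0.61 ± 0.061 (SE), adjusted p = 6.9e-06), with a GC-corrected value of -0.30. CLN3, a membrane protein lost in juvenile neuronal ceroid lipofuscinosis, fell by 0.54 on the log2 scale (GC-corrected -0.22), and the peptide transporter ABCB9 by 0.47, without a call after GC correction (-0.16).

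Transporters that rose included SLC11A2, MFSD8 and SLC17A5. SLC11A2, the divalent metal transporter DMT1 that moves iron out of endosomes, read 82.9, 80.8 and 82.9 CPM in the PBS samples and 119, 108 and 114 CPM in the rhSema3C samples. The treated samples were all higher (log2 fold change 0.47 ± 0.045 (SE), adjusted p = 5.3e-06), by 0.26 after GC correction. MFSD8, a membrane protein lost in a neuronal ceroid lipofuscinosis, rose from 10.1, 8.76 and 10.1 CPM to 12.8, 13.2 and 13.7 CPM (log2 fold change 0.46 ± 0.10 (SE), adjusted p = 0.0019), and its call was lost with the GC correction (0.14). It overlaps ABHD18 on the opposite strand, which rose too (0.69). SLC17A5, the sialic acid exporter sialin, had a log2 fold change of 0.28, or 0.15 after GC correction. ENTPD4, a nucleotidase of Golgi and lysosomal membranes, rose by 0.15 and had no call after that correction (0.04).

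The heavily glycosylated proteins that coat the membrane moved apart. CD63, a tetraspanin and the second most abundant member at 409 FPKM, read 1264, 1251 and 1238 CPM in the PBS samples and 810.4, 797 and 804 CPM in the rhSema3C samples. That was the largest fall in absolute level among the members, from a mean of 1251 to 804 CPM (log2 fold change -0.64 ± 0.036 (SE), adjusted p = 9.0e-08), and the GC-corrected value was -0.40. LAMP1 read 536, 607 and 611 CPM in the PBS samples and 462, 436 and 445 CPM in the rhSema3C samples. LAMP2, its paralog and a receptor for chaperone-mediated autophagy in one of its splice forms, read 170.4, 167 and 172 CPM in the PBS samples and 222, 222 and 220.3 CPM in the rhSema3C samples. LAMP1 was lower (log2 fold change -0.39 ± 0.054 (SE), adjusted p = 8.1e-05) and LAMP2 higher (log2 fold change 0.38 ± 0.037 (SE), adjusted p = 5.3e-06), with no overlap in either, and with the GC correction LAMP1 was at -0.24 and the LAMP2 call was lost (0.07). CD68, a scavenger protein common in macrophages, was lower (-0.58, GC-corrected -0.32), and SCARB2, also known as LIMP-2, was higher (0.18), without a call after GC correction (-0.07). CD164 overlapped between the groups and was called lower with the GC correction (-0.37).

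Of the LAPTM proteins, which span the lysosomal membrane, LAPTM4A was the second most abundant membrane gene at 198 FPKM and read 269, 265 and 265 CPM in the PBS samples and 366, 359.8 and 350.3 CPM in the rhSema3C samples. It was higher in each treated sample (log2 fold change 0.43 ± 0.039 (SE), adjusted p = 2.8e-06), whereas LAPTM4B (-0.32) and LAPTM5 (-0.52) were lower. HGSNAT, which acetylates heparan sulfate across the membrane, also fell (-0.41).

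Of the 4 groups, the V-ATPase had the largest share of members lower, with 8 of 9 members lower, none higher and a median log2 fold change of -0.38. Among all genes tested 30.6% were lower and 31.7% higher. The KEGG entry holds mainly subunits of V0, the membrane sector through which protons pass. ATP6V0D1 (ENSG00000159720, chr16:67438014-67481181, minus strand), the central stalk subunit d1, read 232, 244 and 235 CPM in the PBS samples and 121, 113 and 128 CPM in the rhSema3C samples. Levels were close to 1 value in each group and fell by 48.9% (log2 fold change -0.97 ± 0.050 (SE), adjusted p = 4.6e-08), with a GC-corrected value of -0.64. ATP6V0C, the proton-binding proteolipid subunit and the most abundant V-ATPase member at 139.6 FPKM, read 228, 254 and 262 CPM in the PBS samples and 171, 158 and 156 CPM in the rhSema3C samples. The lowest control was above every treated sample (log2 fold change -0.62 ± 0.057 (SE), adjusted p = 3.4e-06), and the GC-corrected value was about 2 times smaller (-0.30). Its pseudogene ATP6V0CP3 had few counts (1.71 to 3.19 CPM). ATP6V0B, the second proteolipid subunit, fell by 0.47 on the log2 scale, or to -0.18 with the GC correction.

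The a subunit of V0 comes in 4 isoforms that direct the pump to different membranes, and they differed in level and change. ATP6V0A1 (isoform a1) read 87.0, 91.2 and 92.9 CPM in the PBS samples and 73.6, 66.1 and 68.3 CPM in the rhSema3C samples. TCIRG1 (a3), known from osteoclast acid secretion, read 94.9, 106 and 99.8 CPM in the PBS samples and 90.7, 82.3 and 94.6 CPM in the rhSema3C samples. ATP6V0A2 (a2), a Golgi form, read 40.4, 44.0 and 38.8 CPM in the PBS samples and 44.4, 44.0 and 42.8 CPM in the rhSema3C samples. The a1 samples did not overlap (log2 fold change -0.38 ± 0.052 (SE), adjusted p = 7.1e-05), and their GC-corrected value was -0.15. The a3 samples were narrowly apart (log2 fold change -0.17 ± 0.059 (SE), adjusted p = 0.029) and turned to 0.15 with the GC correction and to 0.06 on the TPM scale. The call of a3 was also lost without PBS replicate 2 (-0.13, adjusted p = 0.114), PBS replicate 3 (-0.17, adjusted p = 0.0633) or rhSema3C replicate 2 (-0.11, adjusted p = 0.107). The a2 samples overlapped (log2 fold change 0.09 ± 0.063 (SE), adjusted p = 0.24). ATP6V0A4 (a4), a kidney and inner ear form, had the largest fall of the group from a low level of 1.01 FPKM. It read 6.60, 6.56 and 5.70 CPM in the PBS samples and 2.88, 2.78 and 1.72 CPM in the rhSema3C samples. The groups were apart, with a fold of 2.56 between them (log2 fold change -1.35 ± 0.20 (SE), adjusted p = 0.00013). The single V1 member, ATP6V1H, was lower (log2 fold change -0.26 ± 0.066 (SE), adjusted p = 0.0053), a call that was lost with library size scaling (-0.15, adjusted p = 0.0735), at a mean FPKM of at least 5 (-0.15) and with limma on the FPKM and TPM scales (-0.15 to -0.03). So was the accessory subunit ATP6AP1 (log2 fold change -0.22 ± 0.050 (SE), adjusted p = 0.0022), which was at 0.04 and not called after GC correction and at 0.003 on the TPM scale.

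Subunits outside the KEGG entry moved in both directions. Of the 11 further subunits tested, 4 were lower and 3 higher, near the shares of all genes tested (30.6% lower and 31.7% higher). Adding them to the members gave 8 of 9 V0 genes lower, whereas among 9 genes of V1, the cytosolic ATP-splitting sector, 3 were lower and 2 higher. ATP6V0E2 (-0.97) and ATP6V0E1 (-0.44), small V0 subunits, fell. ATP6V1F (-0.33) and ATP6V1B2 (-0.30) fell as well, and ATP6V1E1 (0.37) and ATP6V1G1 (0.36), which form the peripheral stalks, rose with the accessory subunit ATP6AP2 (0.30). ATP6V0D2, an isoform of ATP6V0D1 below the level rule, had 12, 28 and 0 counts in the PBS samples and 67, 55 and 66 counts in the rhSema3C samples and was not tested. With the GC correction the median of the 9 members moved to -0.18, with 6 lower and 1 higher. The 7 V0 members among them had 5 lower and 1 higher, and their median moved from -0.473 to -0.180. GC-corrected values are not given for the 11 further subunits, so the difference between V0 and V1 rests on uncorrected calls.

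**Figure D4:**
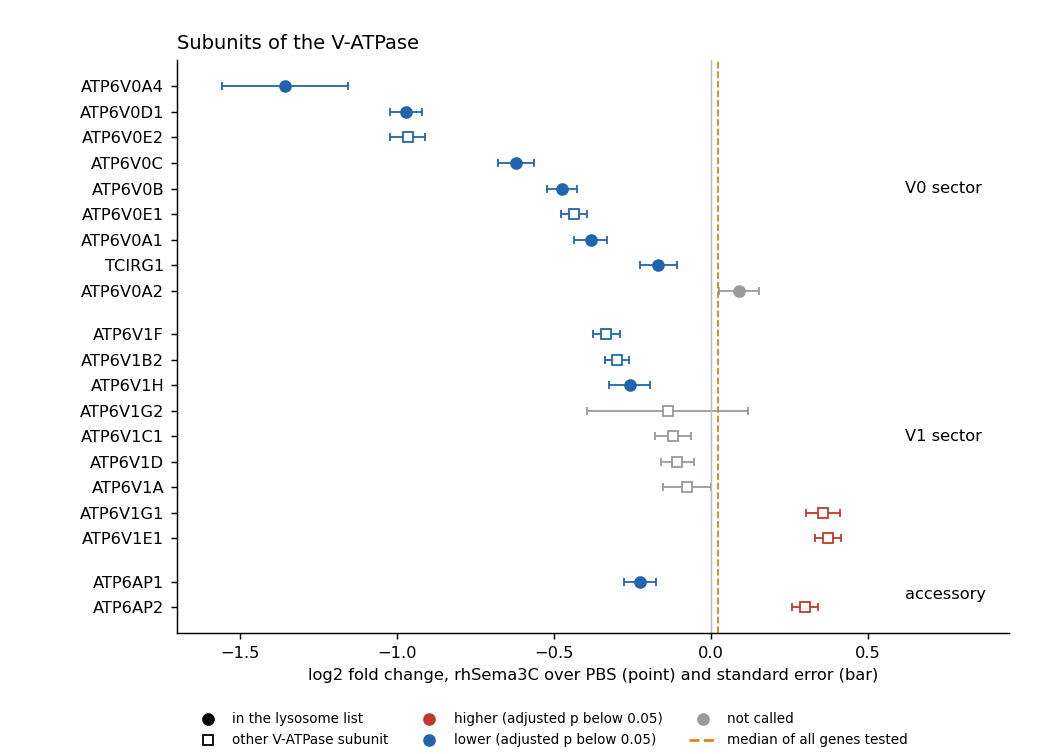
Log2 fold changes (x axis, rhSema3C over PBS) with their standard errors are plotted for 20 V-ATPase genes by sector (y axis), with lysosome members as filled circles and other subunits as open squares, coloured by call. The V0 genes lie left of 0 except ATP6V0A2, and ATP6V1G1, ATP6V1E1 and ATP6AP2 are the 3 called higher.

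Sorting genes had the smallest share of calls, with 12 of 32 lower (37.5%), 4 higher (12.5%) and a median log2 fold change of -0.06. In either direction 50% were called, fewer than the 62.3% of all genes tested, of which 30.6% were lower and 31.7% higher. With the GC correction 17 were lower and 7 higher, and the median was -0.20. Here the coats went different ways. AP-1, the adaptor that links clathrin to cargo between the Golgi and endosomes, had 4 of 8 subunit genes lower and none higher, or 7 lower and 1 higher with the GC correction. AP1S1, the small subunit sigma 1A, read 149, 150.3 and 141 CPM in the PBS samples and 96.9, 88.8 and 92.3 CPM in the rhSema3C samples. AP1M1, the medium subunit, read 138, 148 and 137 CPM in the PBS samples and 93.5, 88.5 and 93.6 CPM in the rhSema3C samples. AP1B1, the large beta subunit, read 194, 217 and 199.8 CPM in the PBS samples and 142, 131 and 137 CPM in the rhSema3C samples. All 3 fell to a similar degree with no overlap, and the log2 fold changes were -0.66, -0.62 and -0.58, or -0.39, -0.62 and -0.25 after GC correction. AP1M2, the epithelial form of the medium subunit, had the largest fall of all members from 1.56 FPKM. It read 5.69, 4.36 and 5.69 CPM in the PBS samples and 1.76, 2.05 and 2.22 CPM in the rhSema3C samples. The 3 treated samples were all below the lowest control, with a fold of 2.61 (log2 fold change -1.38 ± 0.18 (SE), adjusted p = 4.8e-05). The gamma subunits AP1G1 and AP1G2 and the small subunit AP1S2 overlapped between the groups, and AP1S3 did not pass the test (-0.32, adjusted p = 0.062). With the GC correction AP1G1 (-0.29), AP1S2 (-0.21) and AP1S3 (-0.58) were called lower and AP1G2 (0.30) higher.

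AP-3, the adaptor for cargo such as LAMP proteins moving from endosomes to lysosomes, had 3 of 6 subunit genes higher and 1 lower, or 2 and 2 with the GC correction. The shares of all genes tested were 31.7% higher and 30.6% lower. AP3M2, the medium subunit mu 3B, read 33.0, 34.7 and 31.7 CPM in the PBS samples and 57.3, 59.4 and 58.2 CPM in the rhSema3C samples. The rise was 1.76-fold with little scatter (log2 fold change 0.82 ± 0.057 (SE), adjusted p = 4.4e-07). AP3S1 read 64.7, 64.2 and 62.6 CPM in the PBS samples and 78.8, 87.8 and 76.8 CPM in the rhSema3C samples. It rose as well (log2 fold change 0.35 ± 0.056 (SE), adjusted p = 0.00026, GC-corrected 0.21), and AP3B1, lost in a Hermansky-Pudlak syndrome, rose by 0.16 on the log2 scale but was lower (-0.16) with the GC correction and lost its call without PBS replicate 2 (0.13, adjusted p = 0.0728) or rhSema3C replicate 3 (0.13, adjusted p = 0.0889). AP3D1, the delta subunit, was lower (-0.25) and had no call after that correction (0.08). AP3M1 and AP3S2 overlapped between the groups, and AP3M1 was called lower with the correction (-0.20). Of the 4 AP-4 genes tested, AP4M1 was lower (-0.28), without a call after GC correction (0.05), without PBS replicate 3 (-0.21, adjusted p = 0.103), without rhSema3C replicate 2 (-0.21, adjusted p = 0.0976) or without rhSema3C replicate 3 (-0.30, adjusted p = 0.0513), and the other 3 did not pass the test.

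Clathrin chains also diverged. CLTB (ENSG00000175416, chr5:176392455-176416569, minus strand), light chain b, read 112, 111 and 107 CPM in the PBS samples and 49.6, 51.5 and 56.5 CPM in the rhSema3C samples. It fell 2.10-fold (log2 fold change -1.07 ± 0.054 (SE), adjusted p = 4.2e-08), and CLTA, light chain a, fell by 0.51 on the log2 scale (log2 fold change -0.51 ± 0.039 (SE), adjusted p = 8.6e-07). CLTC, the main heavy chain, read 579.8, 589 and 598 CPM in the PBS samples and 549, 579 and 573 CPM in the rhSema3C samples. That was a difference of -0.05 that did not pass the test (adjusted p = 0.25), although the groups did not overlap. With the GC correction CLTC was called lower (-0.33), and 3 clathrin genes were lower and 1 higher. CLTCL1, the minor heavy chain on chromosome 22, read 23.0, 20.7 and 20.4 CPM in the PBS samples and 38.2, 35.1 and 35.7 CPM in the rhSema3C samples and rose (log2 fold change 0.77 ± 0.073 (SE), adjusted p = 4.2e-06).

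Of the 3 receptors that use these coats, only SORT1 passed the test. M6PR, the cation-dependent mannose 6-phosphate receptor and the most abundant sorting gene at 129.6 FPKM, read 475, 484 and 464 CPM in the PBS samples and 491, 462 and 489 CPM in the rhSema3C samples. IGF2R, the larger receptor of the pair, read 432, 474 and 498 CPM in the PBS samples and 518, 455 and 498 CPM in the rhSema3C samples. Both overlapped between the groups, at log2 fold changes of 0.02 ± 0.042 (SE) and 0.07 ± 0.061 (SE). SORT1, sortilin, which carries part of the hydrolases without the tag, was lower (log2 fold change -0.30 ± 0.042 (SE), adjusted p = 7.4e-05). Of the GGA adaptors only GGA2 was called, and it was lower (-0.32). With the GC correction 2 of the GGA adaptors were higher and 1 lower, with a median of 0.27. GNPTAB and GNPTG, the subunits of the enzyme that starts the mannose 6-phosphate tag, did not pass the test. With the GC correction GNPTAB was called lower (-0.27) and GNPTG higher (0.15). NAGPA, which uncovers the tag, was lower (-0.30), without a call after GC correction (0.01). SUMF1, counted with them, activates sulfatases in the endoplasmic reticulum and was lower (log2 fold change -0.63 ± 0.058 (SE), adjusted p = 3.3e-06).

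**Figure D5:**
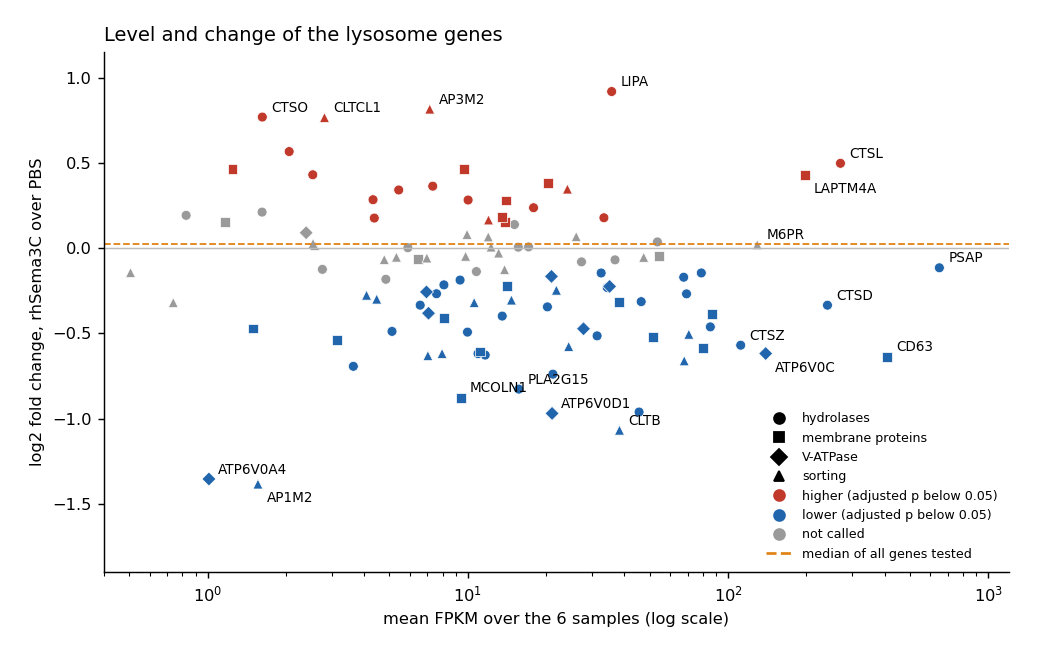
Mean FPKM over the 6 samples (x axis, log scale) is plotted against the log2 fold change (y axis, rhSema3C over PBS) of each member, with shapes for the 4 roles and colours for the call. Among the 8 members above 100 FPKM, CTSL and LAPTM4A are higher, M6PR is not called and the other 5 are lower, and the 2 largest falls, AP1M2 and ATP6V0A4, have levels of 1.56 and 1.01 FPKM.

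Genes of lysosome control and traffic outside the KEGG entry were examined from lists chosen by function, beside a share of 30.6% lower and 31.7% higher among all genes tested. Their values are given without the GC correction, so the limit from base composition described for the members holds for them too. Among the MiT/TFE factors, TFE3 was the abundant one at 46.3 FPKM and was lower (log2 fold change -0.54, adjusted p = 2.1e-06), TFEB was lower at 0.734 FPKM (-0.39, adjusted p = 0.040), MITF did not pass the test (-0.09) and TFEC was below the level rule. HOPS, which tethers vesicles to lysosomes, and its partner RAB7A had 4 of 7 genes lower and none higher, with VPS18 (-0.68) and RAB7A (-0.30) as examples. Of the 12 BORC and ARL8 genes, which move lysosomes along microtubules, 5 were lower and none higher, among them BORCS8 (-0.68) and KXD1 (-0.49). The Ragulator and Rag genes, which hold mTORC1 at the lysosome, split into 3 lower, with LAMTOR1 at -0.59, 2 higher, RRAGB (0.40) and RRAGC (0.23), and 4 without a call. Both cystatins tested, the cathepsin inhibitors CSTB (-0.37) and CST3 (-0.16), were lower. Retromer, which returns sorting receptors from endosomes to the Golgi, moved the other way in 3 of 4 genes, with VPS35 (0.44), VPS26A (0.44) and VPS29 (0.34) higher and the isoform VPS26B (-0.59) lower.

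Markers were checked because several members, such as CD68 and LAPTM5, are used to recognise macrophages. Stellate cell markers were detected, with VIM at 935 FPKM, TIMP1 at 207 FPKM and COL1A1 at 78.0 FPKM, whereas COL1A2, DES and LRAT were each below 0.5 FPKM. Of the 7 stellate markers tested, 5 were lower with rhSema3C, COL1A1 (-0.78), ACTA2 (-0.56), TIMP1 (-0.43), VIM (-0.41) and COL3A1 (-0.36), LOX was higher (1.05) and PDGFRB was not called (0.09). The part of these markers in the members' changes was not tested. By qRT-PCR the study reported the other direction for ACTA2 and COL1A1, a rise of their mRNA in LX-2 cells given rhSema3C. The reason for this difference was not tested. Of the 8 macrophage markers, 6 were in the table and only CD14 passed the level rule, at 3.79 FPKM. PTPRC, CD163 and MARCO were at 0.00444, 0.00604 and 0.0191 FPKM, and CSF1R and LYZ at 0.484 and 0.285 FPKM. The summed marker level was 5.02 to 6.07 FPKM in the PBS samples and 3.42 to 3.94 FPKM in the rhSema3C samples. The 5 hepatocyte markers in the table summed to at most 0.136 FPKM in a sample. The 4 cholangiocyte markers in the table summed to 12.4 to 14.7 FPKM in the PBS samples and 8.6 to 9.31 FPKM in the rhSema3C samples, with EPCAM at 0.0117 FPKM, SOX9 lower (-0.97) and KRT7 not called (0.02). The 6 endothelial markers summed to 1.48 to 1.89 FPKM and 1.95 to 2.39 FPKM, with no call among the 2 tested and CDH5 at 0.00631 FPKM. VWF, below the level rule and not tested, had 87, 71 and 88 counts in the PBS samples and 606, 513 and 653 counts in the rhSema3C samples. CD14 fell (log2 fold change -0.81), and the part of such cells in the members' changes was not tested.

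Annotation sets a further limit. Of the 111 members, 67 overlap another gene of the table on the genome, 32 of them on the same strand. The 44 members without such an overlap had 11 higher, 22 lower and a median log2 fold change of -0.14.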

How the data were processed

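RNA sequencing of 6 LX-2 samples, 3 given rhSema3C at 300 ng/ml and 3 given PBS for 48 h, was analysed from the table the authors deposited. The labels gave each sample its group and replicate number, and 0 columns were left without a sample. For each gene the authors deposited raw counts, which are whole numbers, FPKM values, which are scaled to length and library size, and KEGG annotation. According to the study's methods, the libraries were read on an Illumina NovaSeq, and groups were compared by Cufflinks with cuffmerge. Counting tool, strand setting and build are not given in the sources used here, and the spans of all 111 members overlap their GENCODE v29 gene on GRCh38.

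Genes were kept at a mean FPKM of 0.5 or more, and these 14178 genes were fitted with edgeR 4.0.16 (glmQLFit and glmQLFTest, TMM factors, R 4.3.3), and p-values were adjusted by Benjamini-Hochberg over all of them, with a threshold of 0.05. No term was included besides treatment, and the fit was tested on simulated data. CPM values are counts scaled to the TMM-adjusted library size. Genes named by rule were, in the hydrolase, membrane and sorting groups, the 3 largest rises and falls that passed the test without overlap between groups and the 2 highest mean FPKM, and every V-ATPase member. Other members were named after their values were seen, to account for each class. Some members entered every count and median but are not reported here singly. The members and lists were chosen with earlier results of these data known. Alternatives were 2 other scalings, library sizes without mitochondrial genes, 2 filters, DESeq2 1.42.0, limma 3.58.1 on log2(FPKM + 1), log2(FPKM + 0.1) and log2(TPM + 1), a replicate block, leaving out members that overlap a gene, and leaving out each sample. A correction for GC content and transcript length, with GENCODE v29 transcripts, was added after seeing the data. Exact permutation of 3 against 3 samples cannot give a p below 0.1, so none is reported for single values. Promoters came from RefSeq (GRCh38.p14). Figures were drawn with matplotlib.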

Additional observations from a re-analysis of the deposited data

How the results depend on the processing

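Without a single sample, 22 to 24 members were higher and 53 to 57 lower, and the median log2 fold change ran from -0.18 to -0.13, and that of sorting from -0.085 to -0.064. Replicate numbers did not pair the samples (correlations of same-numbered deviations -0.092, -0.084 and -0.037), and with the replicate number as a block 23 members were higher and 54 lower, TCIRG1 (adjusted p = 0.0523) and PSAP (0.0853) being those that lost their call.

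Medians of all members, hydrolases, membrane, V-ATPase and sorting were -0.037, -0.037, -0.113, -0.273 and 0.046 with library size scaling, -0.096, -0.082, -0.116, -0.277 and 0.051 at a mean FPKM of at least 5, -0.043, -0.041, -0.113, -0.245 and 0.035 on log2(FPKM + 1), -0.044, -0.042, -0.120, -0.277 and 0.040 on log2(FPKM + 0.1) and 0.062, 0.082, 0.004, -0.15 and 0.158 on log2(TPM + 1). These scalings carry a shift of the median of all genes (0.13 for library size, 0.12 on log2(FPKM + 0.1) and 0.23 for TPM). GC correction gave -0.046 for hydrolases, -0.180 for V-ATPase and -0.204 for sorting.

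Counts that moved by over 1.5 times were as follows. On log2(TPM + 1), 46 members were higher and 30 lower, with 21 and 12 hydrolases, 15 and 7 sorting genes, 1 and 4 V-ATPase genes and 7 membrane genes lower. V-ATPase had 5 lower and 1 higher by library size, 5 lower at FPKM of at least 5 and on both log2 FPKM scales, and 1 higher with GC correction. Sorting had 7 higher by library size, at FPKM of at least 5 and with GC correction, and membrane 4 higher with GC correction. Without members that overlap a gene, 44 were left, with 11 higher and 22 lower: hydrolases 6 and 9 (median -0.09), membrane 3 and 4 (-0.14), sorting 2 and 5 (-0.19), and V-ATPase 4 lower (-0.61). The smaller counts follow from fewer genes.

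Directions turned on the TPM scale and with GC correction for ATP6AP1 (0.003 and 0.039), TCIRG1 (0.059 and 0.147) and PSAP (0.112 and 0.149). The cause was not tested. With 3 samples per group and a median standard error of 0.05 among members, small differences such as that of PSAP depend on the scaling.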
